A study of Mus musculus with 3 samples.

Results

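The 10 genes described here belong to the BCL2 family and were chosen by name from the 32285 genes of the count matrices: *Bcl2*, *Bcl2l1*, *Mcl1*, *Bcl2a1a*, *Bcl2a1b*, *Bcl2a1d*, *Bax*, *Bak1*, *Bcl2l11* and *Bid*. Proteins of this family control whether the outer membrane of the mitochondrion stays closed. The survival proteins BCL2, BCL-XL (from *Bcl2l1*), MCL1 and A1 (from the *Bcl2a1* genes) hold back the effectors BAX and BAK, which otherwise open pores and release cytochrome c, and the BH3-only proteins BIM (from *Bcl2l11*) and BID bind survival proteins or activate the effectors. In dendritic cells the balance between these proteins is known to set lifespan, and *Bcl2l1* and the *Bcl2a1* genes are known targets of NF-κB, a transcription factor switched on during activation.

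The data are 3 droplet-based scRNAseq libraries of dendritic cells sorted from MCA205 LA-OVA tumours, a transplanted mouse fibrosarcoma that carries the model antigen OVA, on day 5. The genotypes were WT, *sGsn-/-* (labelled sGSN-/-), which lacks secreted gelsolin, an extracellular actin-binding protein, and *sGsn-/- Clec9a-/-* (labelled sGSN-/-Clec9a-/-), which also lacks DNGR-1, the receptor for exposed actin encoded by *Clec9a*. The series compares the states of cDC1s between these genotypes. All mice were C57BL/6J or backcrossed to it, of both sexes and 6 to 20 weeks old, and carried tumours on both flanks. The ratio of males to females differed between the genotypes, with more males than females in WT and more females than males in *sGsn-/- Clec9a-/-*. Tumours and sorted cells were pooled per genotype, so each genotype has 1 library and no replicate. The sort took live CD45+ Lineage- CD11c+ MHCII+ CD88- cells as pre-cDCs (CD135+ CD43+), cDC1s (XCR1+) or cDC2s (Sirpa+), with NK1.1 and Cd3e among the lineage antibodies.

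In this assay transcripts are counted as unique molecular identifiers (UMIs), and levels below are CPM, a gene's UMIs scaled to 1 common total in each library and group of cells. Barcodes numbered 12763 for WT, 8173 for *sGsn-/-* and 9273 for *sGsn-/- Clec9a-/-*, with 176578136, 109270958 and 113411930 UMIs in total. A deposited table assigns 5806 of these barcodes to 12 clusters of cDC1s, 2316 of them WT, 1712 *sGsn-/-* and 1778 *sGsn-/- Clec9a-/-*, with a median of 14092, 14150 and 12231 UMIs per cell. Clusters 4 and 1 are early cDC1s (1332 cells), clusters 0, 2, 3, 5 and 6 resting cDC1s (3499 cells), and clusters 7, 8, 9 and 10 activated cDC1s (915 cells), while cluster 11 (60 cells, a median of 8.07% mitochondrial UMIs) entered no comparison. Among activated cells, cluster 7 (422 cells) is known for interferon-stimulated genes, cluster 8 (255 cells) for *Ccr7* and *Il12b*, cluster 9 (162 cells) for *Nfkbiz* and *Tnfaip3*, and cluster 10 (76 cells) for *Cxcl9* and *Cxcl10*. Libraries shared 26 to 28 barcodes in pairs, of which 2 or 3 were cDC1s.

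*Clec9a*, the deleted gene, had 5502 UMIs in WT cDC1s, 3970 in *sGsn-/-* cDC1s and 2 in *sGsn-/- Clec9a-/-* cDC1s, which matches the labels. *Gsn*, read through 3′ tags shared by the secreted and the intracellular form, stood at 152, 169 and 167 CPM and checks nothing about the deletion of the secreted form. The 8 markers of cDC1s, none of them at 0, summed to 3872, 3735 and 3852 CPM in WT, *sGsn-/-* and *sGsn-/- Clec9a-/-* cDC1s, with *Naaa* the most abundant at a mean of 1349 CPM. In cluster 8 this sum was 1620, 1515 and 1735 CPM, and 6 of the 8 were called lower than in resting cells. The 7 markers of activated cDCs summed to 14.0, 11.7 and 10.8 CPM in resting cDC1s and 1682, 1890 and 665 CPM in activated ones, with *Ccr7* the most abundant, and to 7306, 6218 and 4044 CPM in cluster 8. They rose in 7 of 7 tests for activated cells, in 2 of 4 for cluster 7 and in 1 of 3 for cluster 9.

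In GRCm38 (mm10) with the GENCODE M21 annotation, the survival genes lie at chr1:106538178-106714274 on the minus strand (*Bcl2*, ENSMUSG00000057329), chr2:152780668-152831728 minus (*Bcl2l1*, ENSMUSG00000007659), chr3:95658788-95663176 plus (*Mcl1*, ENSMUSG00000038612), chr9:88956900-88962419 plus (*Bcl2a1a*, ENSMUSG00000102037), chr9:89199209-89207827 plus (*Bcl2a1b*, ENSMUSG00000089929) and chr9:88723285-88731914 minus (*Bcl2a1d*, ENSMUSG00000099974). The effectors lie at chr7:45461697-45466898 minus (*Bax*, ENSMUSG00000003873) and chr17:27019810-27029009 minus (*Bak1*, ENSMUSG00000057789), and the BH3-only genes at chr2:128126038-128162547 plus (*Bcl2l11*, ENSMUSG00000027381) and chr6:120891930-120916853 minus (*Bid*, ENSMUSG00000004446). *Bcl2*, *Bcl2a1d*, *Bak1* and *Bid* overlap *D630008O14Rik*, *Gm10634*, *Ggnbp1* and *Bcl2l13* on the other strand, and none of the sources used here states whether counting used the strand, so their values are uncertain to that extent. *Bcl2a1a*, *Bcl2a1b* and *Bcl2a1d* are near-identical copies: their transcripts match at 802 of 817 aligned bases (*Bcl2a1a* and *Bcl2a1b*), 809 of 819 (*Bcl2a1a* and *Bcl2a1d*) and 810 of 817 (*Bcl2a1b* and *Bcl2a1d*), and their last 300 bases at 294 of 298, 298 of 300 and 296 of 298. How UMIs were divided among them is uncertain, and they are given singly and as their sum.

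Activated cDC1s carried more transcripts of the *Bcl2a1* copies than resting cDC1s, with smaller rises of *Bcl2l1* and of the BH3-only gene *Bcl2l11*, while *Mcl1*, *Bcl2*, the effectors and *Bid* did not pass the test. *Mcl1*, higher in 3 of 3 libraries, did pass with the library as a block (edgeR adjusted p = 0.00045). Among the 4 activated clusters, *Bcl2l1* was called in cluster 8, and *Bcl2l11* in clusters 8 and 10, while clusters were compared with each other for 8 against 10 alone. The cluster 10 call of *Bcl2l11* was lost with the library as a block (edgeR adjusted p = 0.056) and with cells thinned to 3900 UMIs (0.35). It was also lost without the *sGsn-/-* (0.18) or the *sGsn-/- Clec9a-/-* library (0.34). Summed over the 4 activated clusters against the 5 resting ones, 5 of the 10 members rose, against 15.8% of the 10576 genes tested, and the members' median log2 fold change was 0.44 against −0.02 over all genes tested. All 3 near-identical *Bcl2a1* copies are among these 5. Here and below, member counts and medians take the copies as separate genes, so 1 signal can enter them up to 3 times. No member was called lower by edgeR, which called 8.81% of all genes lower (932, and 324 without the WT or 367 without the *sGsn-/-* library); 0 members were lower at an unadjusted p under 0.05 and 0 by DESeq2. Sums were compared by the quasi-likelihood test of edgeR, with Benjamini-Hochberg adjustment over all genes and the 3 libraries as replicates. Since the clusters were called on these same counts, an adjusted p describes agreement between the libraries and not whether a cluster exists.

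*Bcl2a1b*, a copy of the A1 survival gene, stood at 80.2 CPM in WT, 109 in *sGsn-/-* and 106 in *sGsn-/- Clec9a-/-* resting cDC1s, and at 678, 780.3 and 494 CPM in activated cDC1s. Every activated value lay far above every resting value, with the *sGsn-/- Clec9a-/-* library lowest among the activated sums. The log2 fold change was 2.81 ± 0.163 (SE, n = 3 libraries; edgeR adjusted p = 2.5e-07), a 7.01-fold rise seen in 3 of 3 libraries. *Bcl2a1a* rose from 67.8, 84.7 and 90.0 CPM to 200, 217 and 141 CPM (log2 fold change 1.29 ± 0.149, edgeR adjusted p = 5.6e-05), and *Bcl2a1d* from 139.6, 156 and 159 CPM to 342, 378 and 316 CPM (1.27 ± 0.0896, edgeR adjusted p = 1.1e-06). Neither copy showed any overlap between the groups, and both were higher in 3 of 3 libraries. The sum of the copies went from 288, 349.7 and 355 CPM to 1221, 1376 and 951 CPM, a log2 fold change of 1.92 ± 0.128 (edgeR adjusted p = 7.5e-07).

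*Bcl2l1*, which encodes BCL-XL, stood at 15.2, 18.4 and 13.7 CPM in resting WT, *sGsn-/-* and *sGsn-/- Clec9a-/-* cDC1s and at 20.7, 23.6 and 27.4 CPM in activated cDC1s. The ranges did not overlap, and the gap was widest in the *sGsn-/- Clec9a-/-* library. Its log2 fold change was 0.68 ± 0.143 (edgeR adjusted p = 0.0047), higher in 3 of 3 libraries. *Mcl1*, the gene of a short-lived survival protein, stood at 848, 807 and 702 CPM in resting cells and 987, 869 and 751 CPM in activated cells. Within each library the activated sum was the higher one, yet the ranges over libraries overlapped. The log2 fold change of 0.23 ± 0.0897 did not pass (edgeR adjusted p = 0.086). With the library as a block it did (edgeR adjusted p = 0.00045), as it did without the *sGsn-/- Clec9a-/-* library (log2 fold change 0.26, adjusted p = 0.039), and over the 11 alternatives the adjusted p ran from 0.00045 to 0.31. *Bcl2*, with 5.02, 7.66 and 8.0 CPM in resting and 8.84, 8.71 and 6.47 CPM in activated cells, had a log2 fold change of 0.34 ± 0.235 (edgeR adjusted p = 0.33) and was higher in 2 of 3 libraries. Its log2 fold change ran from 0.06 to 0.59 as each library was left out.

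Among the effectors, *Bax* stood at 177, 197 and 179 CPM in resting and 170.4, 196 and 177 CPM in activated WT, *sGsn-/-* and *sGsn-/- Clec9a-/-* cDC1s, and *Bak1* at 59.2, 61.6 and 57.0 CPM against 61.9, 56.5 and 62.3 CPM. Both pairs of ranges overlapped. Their log2 fold changes were 0.06 ± 0.0827 and 0.10 ± 0.0769 (edgeR adjusted p = 0.65 and 0.36). The sign for *Bax* turned with library size alone (−0.02) and without cluster 6 among resting cells (−0.03), and that for *Bak1* with clusters weighted equally (−0.08, without a test). Of the BH3-only genes, *Bcl2l11* rose from 79.9, 72.9 and 62.4 CPM to 98.8, 111 and 84.8 CPM, a log2 fold change of 0.54 ± 0.104 (edgeR adjusted p = 0.0026). The increase was present in each library and the groups did not overlap. *Bid* stood at 19.6, 21.1 and 18.7 CPM in resting and 17.0, 12.5 and 21.9 CPM in activated cells (−0.15 ± 0.159, edgeR adjusted p = 0.55), and without the *sGsn-/-* library its log2 fold change was 0.07.

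**Figure D1:**
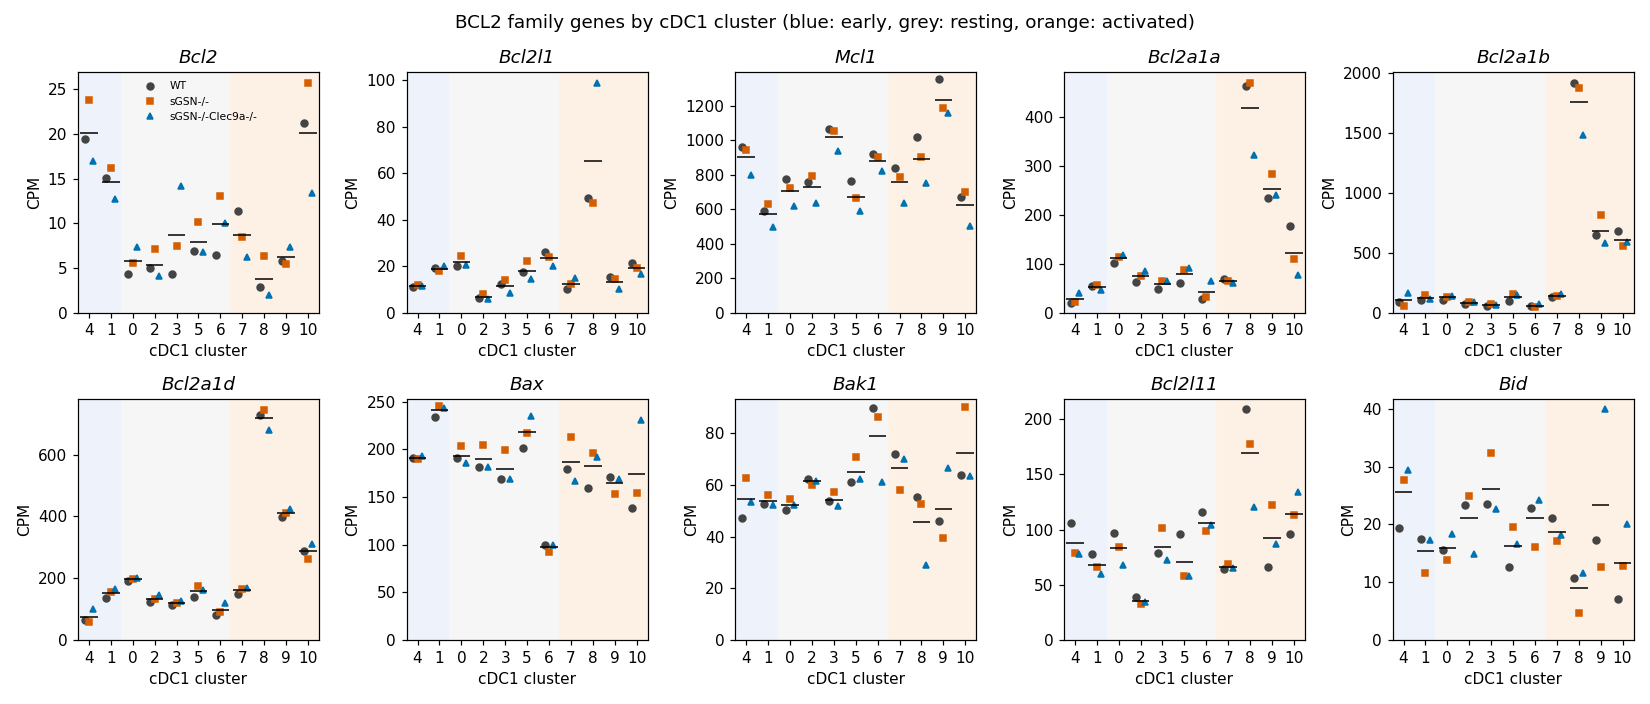
CPM of the 10 members in each deposited cDC1 cluster, 1 point per library (WT, sGSN-/- and sGSN-/-Clec9a-/-) and a line at the mean of the 3 libraries, with clusters shaded as early, resting or activated. The Bcl2a1 copies reach their highest means in cluster 8 (1760 CPM for Bcl2a1b), as do Bcl2l1 (65.2 CPM) and Bcl2l11 (169 CPM), whereas Mcl1 is highest in cluster 9 (1235 CPM) and Bax in cluster 1 (241 CPM).

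Each of the 4 activated clusters was tested against the same resting sums, so these comparisons are not independent of each other. In cluster 8, the cDC1s with *Ccr7* and *Il12b*, 6 of 10 members rose, against 22.8% of the 10407 genes tested, and 1 fell, against 20.2% (1258 genes lower without the WT and 1296 without the *sGsn-/-* library, against 2102 with all 3). The members' median log2 fold change was 0.93, against −0.07 over all genes tested. *Bcl2a1b* reached 1918, 1880 and 1483 CPM in WT, *sGsn-/-* and *sGsn-/- Clec9a-/-* cells of cluster 8, a 20.5-fold rise over resting cDC1s (log2 fold change 4.36 ± 0.154, edgeR adjusted p = 9.8e-12). *Bcl2a1a*, at 463, 469.9 and 322 CPM, rose by 2.58 ± 0.15 on the log2 scale (edgeR adjusted p = 2.3e-09), and *Bcl2a1d*, at 729, 745 and 681 CPM, by 2.44 ± 0.11 (edgeR adjusted p = 1.3e-10). For each copy all 3 libraries of cluster 8 lay above all resting sums, and the sum of the copies was 3110, 3095 and 2486 CPM (3.32 ± 0.133, edgeR adjusted p = 4e-11).

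*Bcl2l1* reached 49.4, 47.2 and 99.0 CPM in cluster 8 of the WT, *sGsn-/-* and *sGsn-/- Clec9a-/-* libraries. All 3 values exceeded the resting ones, and the *sGsn-/- Clec9a-/-* value was the highest by a wide margin. The log2 fold change against resting cDC1s was 2.10 ± 0.23 (edgeR adjusted p = 3e-06). *Bcl2l11* stood at 209, 177 and 120.3 CPM, again above every resting value, with a log2 fold change of 1.47 ± 0.141 (edgeR adjusted p = 7.2e-07). Here the WT library was highest and the *sGsn-/- Clec9a-/-* library lowest. *Mcl1*, at 1022, 901 and 753 CPM, was higher than resting within each library but overlapped the resting range. Its rise of 0.38 ± 0.114 (edgeR adjusted p = 0.014) was lost without the WT library (0.33, adjusted p = 0.097), without the *sGsn-/-* library (0.35, adjusted p = 0.15), with library size alone (0.19, adjusted p = 0.21) and without a filter on low counts (0.25, adjusted p = 0.085). The adjusted p ran from 0.0024 to 0.21 over 11 alternatives.

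*Bid* was the member that fell in cluster 8, from 19.6, 21.1 and 18.7 CPM to 10.7, 4.72 and 11.6 CPM in WT, *sGsn-/-* and *sGsn-/- Clec9a-/-* cells. All 3 libraries of cluster 8 lay below the resting values. Its log2 fold change of −1.08 ± 0.278 (edgeR adjusted p = 0.0056) no longer passed without the *sGsn-/-* library (−0.66, adjusted p = 0.14) or with cells thinned to 3900 UMIs each (−1.02, adjusted p = 0.12), and the adjusted p ran from 0.00018 to 0.14 over 11 alternatives. *Bax* (159.9, 196 and 192 CPM) and *Bak1* (55.2, 52.7 and 29.1 CPM) did not pass, with log2 fold changes of 0.18 ± 0.117 and −0.09 ± 0.149 (edgeR adjusted p = 0.25 and 0.66). *Bak1* lay below resting in 3 of 3 libraries without overlap, but in CPM, which are scaled by library size alone. With that scaling the median log2 fold change of all genes tested in cluster 8 was −0.254. The log2 ratios of *Bak1* were −0.101 in WT, −0.223 in *sGsn-/-* and −0.97 in *sGsn-/- Clec9a-/-* cells, and only the last lay below that median. Here and below, the share of all genes separated in this way is not given, and no change is read from such a separation without a call. The sign of *Bax* turned with library size alone (−0.02), and that of *Bak1* without the *sGsn-/- Clec9a-/-* library (0.02). *Bcl2* was sparse in cluster 8, at 2.91, 6.30 and 1.94 CPM, and a difference from resting cells was not detectable at this depth (log2 fold change −0.48 ± 0.504, edgeR adjusted p = 0.47). It lay below resting within each library, with overlapping ranges, and its log2 fold change ran from −1.15 to −0.19 as each library was left out.

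In cluster 9, the cluster of *Nfkbiz* and *Tnfaip3*, 4 of 10 members rose, against 4.04% of the 10224 genes tested, with a members' median of 0.27 against −0.01 over all genes tested. Cluster 9 was the activated cluster in which *Mcl1* was highest, at 1355, 1190 and 1159 CPM in WT, *sGsn-/-* and *sGsn-/- Clec9a-/-* cells. These values cleared the resting range, and the log2 fold change was 0.68 ± 0.092 (edgeR adjusted p = 5.2e-05). *Bcl2a1a* (234, 283 and 241 CPM), *Bcl2a1b* (646, 817 and 580.2 CPM) and *Bcl2a1d* (399, 411 and 423 CPM) rose by 1.66 ± 0.121, 2.80 ± 0.128 and 1.46 ± 0.0941 on the log2 scale (edgeR adjusted p = 1.1e-08, 8.7e-12 and 1.7e-09), each in 3 of 3 libraries and without overlap. *Bcl2l1* (15.4, 14.4 and 10.4 CPM) and *Bcl2l11* (66.3, 123 and 87.3 CPM) did not pass here (log2 fold changes −0.18 ± 0.27 and 0.31 ± 0.154, edgeR adjusted p = 0.82 and 0.32), and a difference from cluster 8 was not tested directly. The log2 fold change of *Bcl2l11* ran from 0.09 to 0.62 as each library was left out, and its adjusted p from 0.055 to 0.88 over 11 alternatives. *Bcl2* (5.76, 5.41 and 7.40 CPM), *Bax* (171, 153 and 169 CPM) and *Bak1* (46.1, 39.65 and 66.6 CPM) did not pass either. Their log2 fold changes were −0.10 ± 0.456, −0.13 ± 0.1 and −0.20 ± 0.149 (edgeR adjusted p = 0.95, 0.57 and 0.56). Of these, *Bax* lay below resting in 3 of 3 libraries without overlap in CPM. Its log2 ratios were −0.0465 in WT, −0.363 in *sGsn-/-* and −0.088 in *sGsn-/- Clec9a-/-* cells. With library size alone the median of all genes tested in cluster 9 was −0.0363. *Bid* stood at 17.3, 12.6 and 40.0 CPM, with the *sGsn-/- Clec9a-/-* library apart from the others, and its log2 fold change of 0.24 ± 0.262 (edgeR adjusted p = 0.73) became −0.35 without that library. edgeR called 0 members lower in cluster 9, against 1.33% of all genes, and 0 were lower at an unadjusted p under 0.05 or by DESeq2. Leaving out the WT library brought the genes called higher from 413 to 250 and those called lower from 136 to 55, the *sGsn-/- Clec9a-/-* library to 258 and 74, and the *sGsn-/-* library brought the lower ones to 81; with the library as a block 205 genes were lower.

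In cluster 10, the cluster of *Cxcl9* and *Cxcl10*, 4 of 10 members rose, against 6.31% of the 10061 genes tested, and 1 fell, against 6.08%; with the library as a block, 2 rose and 1 fell. The members' median was 0.38, against −0.11 over all genes tested, and this cluster is the thinnest, with 891318 UMIs in all. *Bcl2a1b* stood at 684, 554 and 592 CPM in WT, *sGsn-/-* and *sGsn-/- Clec9a-/-* cells (log2 fold change 2.57 ± 0.135, edgeR adjusted p = 3.4e-12) and *Bcl2a1d* at 287, 261 and 311 CPM (0.86 ± 0.131, edgeR adjusted p = 6.7e-05). Both cleared the resting range in each library, but *Bcl2a1d* lost its call with thinned cells (0.59, edgeR adjusted p = 0.064, in a range of 6e-09 to 0.064). *Bcl2a1a*, at 177, 109.6 and 77.0 CPM, varied by library, higher than resting in 2 of 3, and did not pass (0.51 ± 0.214, edgeR adjusted p = 0.13). Without the WT library its log2 fold change was 0.06 (edgeR adjusted p = 0.93, in a range of 0.052 to 0.93), and with neighbour-based states −0.05. *Bcl2*, the founding survival gene of the family, reached 21.3, 25.8 and 13.4 CPM in cluster 10, from 6, 8 and 4 UMIs. These values lay above all resting values (1.52 ± 0.485, edgeR adjusted p = 0.042). *Bcl2l11* reached 95.7, 113 and 134 CPM, likewise above all resting values (0.61 ± 0.176, edgeR adjusted p = 0.023). *Mcl1* fell within each library, to 669.7, 702 and 505 CPM, with overlapping ranges (−0.39 ± 0.124, edgeR adjusted p = 0.042).

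*Bcl2* and *Mcl1* lost their calls in cluster 10 whichever library was left out, with log2 fold changes of the same sign, and *Bcl2l11* lost its call without either gelsolin-deficient library. *Bcl2* lost its call with the library as a block (adjusted p = 0.066) and without the WT (0.15), the *sGsn-/-* (0.33) or the *sGsn-/- Clec9a-/-* library (0.064). It also lost its call with thinned cells (adjusted p = 0.19) and neighbour-based states (0.062). Its adjusted p ran from 0.0059 to 0.33 over 11 alternatives, DESeq2 among them, with log2 fold changes of 1.29 to 1.85. *Bcl2l11* lost its call with the block (edgeR adjusted p = 0.056), without the *sGsn-/-* library (0.61, adjusted p = 0.18), without the *sGsn-/- Clec9a-/-* library (0.37, adjusted p = 0.34) and with thinned cells (0.48, adjusted p = 0.35), within a range of 0.0021 to 0.35. *Mcl1* lost its call without the WT (−0.36, edgeR adjusted p = 0.15), the *sGsn-/-* (−0.50, adjusted p = 0.11) or the *sGsn-/- Clec9a-/-* library (−0.35, adjusted p = 0.17), with library size alone (−0.33, adjusted p = 0.089) and without cluster 6 (−0.39, adjusted p = 0.053), and was negative over all 11 alternatives, with adjusted p from 0.0073 to 0.17. *Bcl2l1* (21.3, 19.3 and 16.7 CPM), *Bax* (138, 155 and 231 CPM), *Bak1* (63.8, 90.2 and 63.6 CPM) and *Bid* (7.09, 12.9 and 20.1 CPM) did not pass in cluster 10. Their log2 fold changes were 0.22 ± 0.372, −0.13 ± 0.163, 0.24 ± 0.185 and −0.61 ± 0.39 (edgeR adjusted p = 0.79, 0.7, 0.48 and 0.36). *Bak1* was higher than resting in 3 of 3 libraries without overlap in CPM, which is not read as a rise. *Bid* turned to 0.38 with thinned cells. Counts of all genes also moved: 635 genes higher became 340 without the *sGsn-/-* and 402 without the *sGsn-/- Clec9a-/-* library, and 612 lower became 337, 270 and 302 without the WT, *sGsn-/-* and *sGsn-/- Clec9a-/-* library.

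Cluster 7, the cells with interferon-stimulated genes, had 2 of 10 members called higher, against 12.6% of the 10269 genes tested, and 1 under 7 of 11 alternatives. The members' median was 0.09 against −0.03 over all genes tested. *Bcl2a1b* went to 131, 143 and 153 CPM in WT, *sGsn-/-* and *sGsn-/- Clec9a-/-* cells, above every resting value (log2 fold change 0.64 ± 0.12, edgeR adjusted p = 0.00087). *Bak1*, at 71.9, 58.3 and 70.1 CPM, was higher than resting in the WT and *sGsn-/- Clec9a-/-* libraries and lower in the *sGsn-/-* library, and its call (0.28 ± 0.0928, edgeR adjusted p = 0.044) was lost under 7 of 11 alternatives, among them leaving out the WT (0.22, adjusted p = 0.3) or the *sGsn-/- Clec9a-/-* library (0.23, adjusted p = 0.23) and using library size alone (0.17, adjusted p = 0.23), within a range of 0.024 to 0.79. The sum of the *Bcl2a1* copies, 348, 372 and 382 CPM, did not pass (0.26 ± 0.0951, edgeR adjusted p = 0.069), although it was higher in 3 of 3 libraries. With the library as a block, a fit of the sum chosen after seeing the data, it rose by 0.27 (edgeR adjusted p = 0.00018). Likewise *Bcl2a1d* (149, 165 and 168 CPM) passed with the library as a block (adjusted p = 0.02) and not without it (adjusted p = 0.17), with a range of 0.02 to 0.53. *Bcl2* (11.4, 8.52 and 6.27 CPM), *Bcl2l1* (10.1, 12.3 and 14.8 CPM), *Mcl1* (842, 789.5 and 635.5 CPM) and *Bcl2a1a* (68.0, 63.9 and 60.4 CPM) did not pass in cluster 7. Their log2 fold changes were 0.51 ± 0.285, −0.25 ± 0.191, 0.05 ± 0.0856 and −0.22 ± 0.123 (edgeR adjusted p = 0.24, 0.41, 0.72 and 0.24). The same held for *Bax* (179, 213 and 167 CPM), *Bcl2l11* (64.0, 68.7 and 65.0 CPM) and *Bid* (21.05, 17.05 and 18.2 CPM), at 0.13 ± 0.0889, −0.02 ± 0.0975 and 0.04 ± 0.138 (edgeR adjusted p = 0.36, 0.94 and 0.89). With library size alone the signs of *Mcl1* (−0.05) and *Bid* (−0.07) turned. The log2 fold change of *Bcl2* in cluster 7 ran from 0.05 to 0.81 as each library was left out. Here edgeR called 0 members lower, against 6.56% of all genes, and 0 were lower at an unadjusted p under 0.05 or by DESeq2. In all 674 genes were lower in all, and 309, 306 and 357 without the WT, *sGsn-/-* and *sGsn-/- Clec9a-/-* library.

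**Figure D2:**
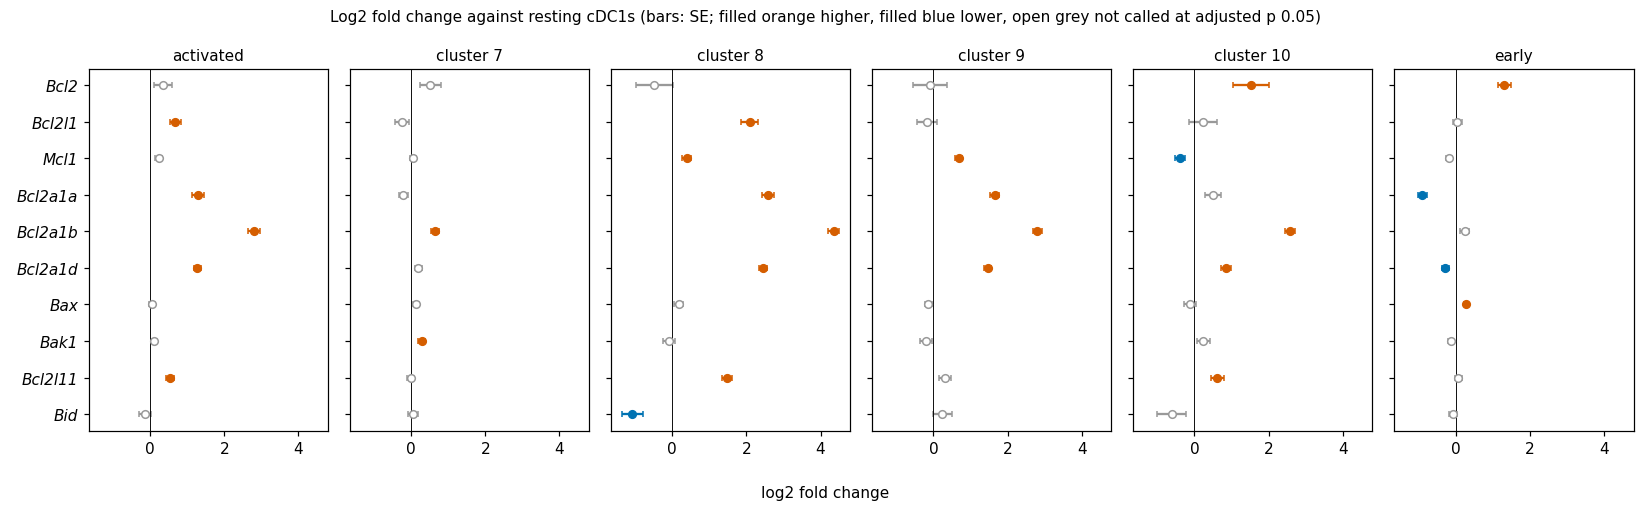
Log2 fold changes of the members against resting cDC1s with their standard errors (edgeR, 3 libraries), for activated cDC1s together, for clusters 7, 8, 9 and 10 and for early cDC1s; filled points passed an adjusted p of 0.05 as higher (orange) or lower (blue), and open points did not. Bcl2a1b passed in all 4 activated clusters, from 0.64 in cluster 7 to 4.36 in cluster 8, and Bid passed as lower in cluster 8 (−1.08).

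Clusters 8 and 10 were also compared directly. Of the 8 members with enough UMIs to be tested, 6 were higher in cluster 8, against 18.8% of the 4229 genes tested, with a members' median of 1.12 against 0.01 over all genes tested. *Bcl2a1a*, *Bcl2a1b* and *Bcl2a1d* were higher by 1.98 ± 0.241, 1.70 ± 0.16 and 1.49 ± 0.167 on the log2 scale (edgeR adjusted p = 3e-05, 3.7e-06 and 1.5e-05), in 3 of 3 libraries and with no overlap. *Bcl2l1* was higher by 1.84 ± 0.42 (edgeR adjusted p = 0.0036), at 49.4, 47.2 and 99.0 CPM against 21.3, 19.3 and 16.7 CPM. *Mcl1* was higher by 0.68 ± 0.169 (edgeR adjusted p = 0.0061) and separated in every library, though without the WT library its adjusted p was 0.062 (0.62), within a range of 0.00018 to 0.062 over 10 alternatives. *Bcl2l11* was higher in 2 of 3 libraries with overlapping ranges (0.74 ± 0.233, edgeR adjusted p = 0.023), and lost its call without the WT (0.45, adjusted p = 0.28) or the *sGsn-/-* library (0.72, adjusted p = 0.12) and under 3 other alternatives, within a range of 0.0015 to 0.28. *Bcl2*, not tested here for its low counts, stood at 2.91, 6.30 and 1.94 CPM there, against 21.3, 25.8 and 13.4 CPM for cluster 10, with no overlap. *Bax* and *Bak1* did not pass (0.22 ± 0.226 and −0.44 ± 0.279, edgeR adjusted p = 0.47 and 0.23). In CPM *Bak1* was lower in cluster 8 in 3 of 3 libraries without overlap. Its log2 ratios were −0.208 in WT, −0.775 in *sGsn-/-* and −1.13 in *sGsn-/- Clec9a-/-* cells. With library size alone the median of all genes tested in this comparison was −0.164. *Bid*, also too low to be tested, overlapped between the clusters. Among markers, 7 of 7 for activated cDCs were higher in cluster 8. Lower there were 4 of 8 for cDC1s, 2 of 2 tested for monocytes or macrophages, 1 of 1 for cDC2s and 1 of 3 for pre-cDCs. The part of these markers in the members' differences was not tested. edgeR called 0 members lower, against 16.2% of all genes (683, and 394 without the WT or 381 without the *sGsn-/-* library), 0 at an unadjusted p under 0.05 and 0 by DESeq2; without the *sGsn-/- Clec9a-/-* library 1 was lower.

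In early against resting cDC1s 2 of 10 members rose, against 19.1% of the 10696 genes tested, and 2 fell, against 19.4% (without the WT library 1270 genes were higher and 1309 lower, against 2039 and 2075), so these shares are near the background. The members' median log2 fold change was −0.00449, against −0.00881 over all genes tested. *Bcl2* stood at 16.7, 18.8 and 14.3 CPM in early WT, *sGsn-/-* and *sGsn-/- Clec9a-/-* cells, above the 5.02 to 8.0 CPM of resting cells (1.32 ± 0.179, edgeR adjusted p = 5.6e-05). *Bax* stood at 218, 226 and 225 CPM, above the 177 to 197 CPM of resting cells (0.28 ± 0.0644, edgeR adjusted p = 0.0034). Both were higher in 3 of 3 libraries. *Bcl2a1a* fell to 41.2, 44.3 and 44.8 CPM with no overlap (−0.89 ± 0.113, edgeR adjusted p = 2.9e-05). *Bcl2a1d*, at 110.1, 122 and 142 CPM, overlapped the resting range (−0.28 ± 0.099, edgeR adjusted p = 0.04) and lost its call without the WT (−0.25, adjusted p = 0.11) or the *sGsn-/-* library (−0.24, adjusted p = 0.24), within a range of 0.00013 to 0.24. With the library as a block, *Mcl1* fell by 0.18 (edgeR adjusted p = 8.4e-05, and 0.064 without it, with a range of 8.4e-05 to 0.21) and *Bcl2a1b* rose by 0.25 (edgeR adjusted p = 0.0013, and 0.15 without it, with a range of 0.0013 to 0.52). The sum of the copies did not pass (−0.21 ± 0.105, edgeR adjusted p = 0.12), in the opposite direction to *Bcl2a1b* alone (0.24), although it was lower in 3 of 3 libraries, at 253, 281 and 319 CPM. With the library as a block, a fit of the sum chosen after seeing the data, it fell by 0.21 (edgeR adjusted p = 0.00022). *Bcl2l1* (16.0, 15.7 and 16.8 CPM), *Bak1* (50.8, 58.4 and 52.7 CPM), *Bcl2l11* (88.6, 70.7 and 66.2 CPM) and *Bid* (18.2, 17.3 and 21.8 CPM) did not pass in early cells. Their log2 fold changes were 0.05 ± 0.12, −0.13 ± 0.0709, 0.08 ± 0.0961 and −0.06 ± 0.109 (edgeR adjusted p = 0.8, 0.16, 0.57 and 0.73). Other markers also moved in early cDC1s, with 6 of 8 cDC1 markers lower and several lists higher, and their part in the *Bcl2* result was not tested. The 7 NK cell markers summed to 169.6, 219 and 192 CPM (*Klrd1* most abundant, 2 of 4 tested higher, none at 0), against 48.3, 81.9 and 51.7 CPM in resting cells. Of the barcodes in early clusters 5.18% had the highest doublet scores. Without them *Bcl2* rose by 1.36 (edgeR adjusted p = 3.8e-05, in a range of 6e-18 to 0.0043).

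Across the 11 clusters other than cluster 11, each member had its own order of levels, given as mean ± SD over the 3 libraries. *Bcl2* was highest in cluster 10 (20.1 ± 6.27 CPM, from 18 UMIs) and cluster 4 (20.1 ± 3.46 CPM, 128 UMIs), which did not differ beyond their spread. Cluster 1 followed (14.7 ± 1.74 CPM), and cluster 8 was lowest (3.72 ± 2.29 CPM, 12 UMIs), with every pair of neighbours from cluster 1 down overlapping. *Bcl2l1* in cluster 8 (65.2 ± 29.3 CPM) stood apart from cluster 6 (23.4 ± 2.94 CPM), the next in order, and was lowest in cluster 2 (6.69 ± 1.23 CPM), which was also set apart. *Mcl1* in cluster 9 (1235 ± 106 CPM) exceeded cluster 3 (1020 ± 70.6 CPM), and below that all neighbours overlapped down to cluster 10 (626 ± 106 CPM) and cluster 1 (572 ± 69.0 CPM). The sum of the *Bcl2a1* copies fell in separate steps from cluster 8 (2897 ± 356 CPM) to cluster 9 (1345 ± 144 CPM), cluster 10 (1018 ± 116 CPM) and cluster 0 (435 ± 31.8 CPM), and from there overlapped between neighbours down to cluster 6 (197 ± 51.8 CPM). Cluster 7, although grouped with the activated cells, held a sum of 367 ± 17.5 CPM, inside the span of the resting clusters.

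*Bax* was highest in cluster 1 (241 ± 5.80 CPM), apart from cluster 5 (218 ± 17.1 CPM), and lowest in cluster 6 (97.4 ± 4.27 CPM), apart from cluster 9 (164 ± 9.67 CPM). Cluster 6 is also the resting cluster with the fewest UMIs per cell, a median of 8530.5 against 13930 over resting cells, and the part of depth in its low *Bax* was not tested. *Bak1* ran from 79.1 ± 15.6 CPM in cluster 6 to 45.7 ± 14.4 CPM in cluster 8 and *Bid* from 26.2 ± 5.32 CPM in cluster 3 to 9.01 ± 3.74 CPM in cluster 8, with no pair of neighbours separated. *Bcl2l11* was highest in cluster 8 (169 ± 45.0 CPM), followed by clusters 10 (114 ± 19.1 CPM) and 6 (106 ± 8.95 CPM), with cluster 10 overlapping both of the others, and lowest in cluster 2 (34.9 ± 3.16 CPM), which was separated from cluster 7 (65.9 ± 2.45 CPM).

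The 3 *Bcl2a1* copies did not keep fixed proportions. Of the UMIs assigned to them, *Bcl2a1b* took 29.6% ± 1.6 (SD, n = 3 libraries) in resting, 40.8% ± 0.65 in early and 54.7% ± 2.5 in activated cDC1s, while *Bcl2a1a* took 24.4% ± 0.91 in resting and 15.7% ± 0.77 in activated cells and *Bcl2a1d* 46.0% ± 2.2 and 29.6% ± 3.2. Among activated clusters the share of *Bcl2a1b* was 38.7% ± 1.3 in cluster 7, 50.4% ± 3.7 in cluster 9, 60.7% ± 1 in cluster 8 and 60.0% ± 0.42 in cluster 10. With transcripts this alike, a shift in how tags were assigned and a shift in transcription cannot be told apart.

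Because the copies moved together in clusters 8 and 9, the sequences around their transcription starts are printed, each from 250 bases before to 50 bases after the start, 5′ to 3′ on the strand of the gene, from RefSeq in GRCm38. *Bcl2a1a* lies at chr9:88956670-88956969 on the plus strand, *Bcl2a1b* at chr9:89199023-89199322 on the plus strand and *Bcl2a1d* at chr9:88731801-88732100 on the minus strand. The windows of *Bcl2a1a* and *Bcl2a1b* align over 256 bases with 254 identical, those of *Bcl2a1a* and *Bcl2a1d* over 300 with 288 identical, and those of *Bcl2a1b* and *Bcl2a1d* over 256 with 247 identical. Capitals mark TGAATCA, which fits the loose pattern TGANTCA but not the stricter AP-1 site TGASTCA (S for C or G), and GAGGAAGT, the PU-box bound by ETS factors such as PU.1.
Bcl2a1a: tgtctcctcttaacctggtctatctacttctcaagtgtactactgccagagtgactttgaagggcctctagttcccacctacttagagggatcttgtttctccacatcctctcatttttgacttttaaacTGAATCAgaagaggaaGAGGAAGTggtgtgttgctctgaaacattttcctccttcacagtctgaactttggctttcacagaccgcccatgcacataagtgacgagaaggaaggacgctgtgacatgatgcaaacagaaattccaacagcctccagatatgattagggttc
Bcl2a1b: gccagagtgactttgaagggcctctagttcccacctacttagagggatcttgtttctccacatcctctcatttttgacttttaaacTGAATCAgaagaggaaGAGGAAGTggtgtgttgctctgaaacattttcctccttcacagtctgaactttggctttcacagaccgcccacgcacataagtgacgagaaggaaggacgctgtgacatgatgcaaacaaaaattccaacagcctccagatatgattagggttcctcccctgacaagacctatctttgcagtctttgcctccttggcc
Bcl2a1d: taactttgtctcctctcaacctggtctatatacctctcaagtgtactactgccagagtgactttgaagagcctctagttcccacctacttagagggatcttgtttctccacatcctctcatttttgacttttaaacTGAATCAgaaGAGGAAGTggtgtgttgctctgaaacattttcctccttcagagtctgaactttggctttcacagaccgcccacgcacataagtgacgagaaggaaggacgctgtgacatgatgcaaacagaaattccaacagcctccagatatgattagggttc

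All 5 motifs were chosen after these sequences had been seen, and each was searched on both strands of the 13 promoter windows of the 10 members and of all 32817 promoter windows. TGANTCA was found for the 3 copies and for 7.81% of all promoters, and GAGGAAGT for the 3 copies and *Bak1* and for 3.2% of all promoters. The κB motif was found for *Bcl2l1* and for 4.5% of all promoters. The interferon-stimulated response element (3.43% of all promoters) and the STAT motif TTCNNNGAA (8.29%) had no match in the windows of the members. A match is a description of these letters in this window, and shared matches follow from the near identity of the copies.

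Genes that work beside the 10 members were described by list, and the counts below stand beside these shares of all genes tested. edgeR called 15.8% higher and 8.81% lower in activated cells, 22.8% and 20.2% in cluster 8 and 6.31% and 6.08% in cluster 10. The shares were 12.6% and 6.56% in cluster 7, 4.04% and 1.33% in cluster 9, 19.1% and 19.4% in early cells, and 18.8% and 16.2% for cluster 8 against 10. Of 17 other BCL2 family genes, 12 could be tested in activated against resting cDC1s, and 1 rose and 2 fell (median log2 fold change −0.04), while DESeq2 called 1 higher and 0 lower, and 3 were lower at an unadjusted p under 0.05. *Bcl2l14*, a family member of less settled function, rose from 19.3, 17.3 and 22.8 CPM in resting WT, *sGsn-/-* and *sGsn-/- Clec9a-/-* cDC1s to 86.9, 117 and 57.0 CPM in activated ones (2.23 ± 0.201, edgeR adjusted p = 7.5e-06), and to 322, 340.0 and 247 CPM in cluster 8 (4.15 ± 0.144, edgeR adjusted p = 8.8e-12). The BH3-only gene *Bmf* fell by 0.88 on the log2 scale (SE 0.266, edgeR adjusted p = 0.032; lost by DESeq2, adjusted p = 0.12, without cluster 6, adjusted p = 0.079, without the WT library at −0.76, adjusted p = 0.22, or the *sGsn-/- Clec9a-/-* library at −0.74, adjusted p = 0.13, in a range of 0.01 to 0.22). *Bnip3l*, a receptor for the removal of mitochondria, fell by 0.30 (SE 0.0967, edgeR adjusted p = 0.042; lost by DESeq2, adjusted p = 0.075, with thinned cells, adjusted p = 0.1, with neighbour-based states, adjusted p = 0.09, without the WT library at −0.27, adjusted p = 0.26, or the *sGsn-/- Clec9a-/-* library at −0.20, adjusted p = 0.22, in a range of 0.0047 to 0.26). In cluster 8, 3 of 12 rose and 1 fell. Besides *Bcl2l14*, a further copy, *Bcl2a1c*, rose from 1.28, 1.71 and 1.94 to 7.75, 6.30 and 3.88 CPM (2.17 ± 0.455, edgeR adjusted p = 0.0013). *Bad*, a BH3-only gene, fell from 36.2, 37.2 and 36.5 to 16.5, 21.3 and 25.2 CPM (−0.67 ± 0.179, edgeR adjusted p = 0.0075; −0.53 and adjusted p = 0.087 without the WT library, in a range of 0.00048 to 0.097). In cluster 10, 2 of 11 fell, and *Pmaip1*, which encodes the BH3-only protein NOXA that targets MCL1, went from 509, 466 and 482 CPM to 227, 248 and 258 CPM in 3 of 3 libraries (−1.05 ± 0.131, edgeR adjusted p = 4.7e-06). The other was *Bnip3l* (−0.79 ± 0.233, edgeR adjusted p = 0.027), whose call was lost by DESeq2 (adjusted p = 0.058), with the library as a block (0.059), with thinned cells (0.24), with neighbour-based states (0.05) and without the WT (0.081), the *sGsn-/-* (0.086) or the *sGsn-/- Clec9a-/-* library (0.22), in a range of 0.019 to 0.24. edgeR called 0 of these 11 higher there, with 1 at an unadjusted p under 0.05 and 1 by DESeq2.

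Of the 16 genes of mitochondrial apoptosis, 9 rose and 1 fell in activated cDC1s (median 0.36), 8 rose and 3 fell in cluster 8 (0.33), and 5 rose in cluster 10 (0.32). The inhibitors of apoptosis *Birc2* and *Birc3*, which also act in NF-κB signalling, rose by 1.78 ± 0.235 and 1.47 ± 0.094 on the log2 scale in activated cells (edgeR adjusted p = 0.00017 and 5.4e-07) and by 3.38 ± 0.168 and 2.43 ± 0.126 in cluster 8 (4e-10 and 6.3e-10). *Htra2*, a mitochondrial protease, rose by 1.38 ± 0.194 in activated cells and 2.99 ± 0.166 in cluster 8 (edgeR adjusted p = 0.00026 and 1.4e-09). In cluster 10 *Birc3* rose by 1.66 ± 0.21 (edgeR adjusted p = 5.8e-06). There *Birc2* (1.23 ± 0.297, edgeR adjusted p = 0.007) lost its call without the WT (1.06, adjusted p = 0.12) or the *sGsn-/-* library (1.03, adjusted p = 0.16) and with thinned cells (0.70, adjusted p = 0.57), in a range of 9.4e-05 to 0.57. *Diablo*, an antagonist of these inhibitors, passed there as well (0.70 ± 0.218, edgeR adjusted p = 0.037), but not with the library as a block (adjusted p = 0.1) nor without the WT (0.11), the *sGsn-/-* (0.19) or the *sGsn-/- Clec9a-/-* library (0.19), in a range of 0.015 to 0.6. The *Diablo* call was also lost without a filter (adjusted p = 0.09), with thinned cells (0.50, adjusted p = 0.6), with neighbour-based states (0.092) and without cluster 6 (0.058). Of the death receptor genes, 6 of 12 rose and 1 fell in activated cells (0.32), 6 of 12 rose and 2 fell in cluster 8 (0.81), and 6 of 12 rose in cluster 10 (0.90). *Fas*, a death receptor, stood at 1.66, 1.71 and 1.72 CPM in resting cells and at 45.5, 59.0 and 23.3 CPM in cluster 8 (4.96 ± 0.274, edgeR adjusted p = 1.3e-09), and the caspase-8 inhibitor *Cflar* and the adaptor *Traf1* rose there by 3.53 ± 0.119 and 3.58 ± 0.107 (6.9e-12 and 2.6e-12). In cluster 10 *Fas* was at 17.7, 3.22 and 23.4 CPM (3.04 ± 0.605, edgeR adjusted p = 0.0013; 2.50 and adjusted p = 0.099 without the *sGsn-/- Clec9a-/-* library, in a range of 9.3e-09 to 0.099), with *Traf1* and *Cflar* higher by 1.76 ± 0.117 and 1.63 ± 0.256 (2.2e-10 and 8.6e-05). Over activated cells *Fas*, *Traf1*, *Cflar* and *Traf2* rose by 3.10, 2.17, 1.93 and 1.01 (edgeR adjusted p = 1.8e-05, 1.5e-07, 9.3e-07 and 0.00037).

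Of 14 regulators of the family, 7 rose in activated cDC1s (median 0.23), 9 in cluster 8 (0.90) and 7 in cluster 9 (0.53), and 5 rose and 1 fell in cluster 10 (0.16). The symbol *Ddit3* on this list names 2 genes, and the first of their gene IDs was counted. The NF-κB subunit gene *Relb* went from 24.9, 23.9 and 22.9 CPM in resting to 530, 547 and 329.9 CPM in cluster 8 (4.51 ± 0.157, edgeR adjusted p = 8.9e-12) and rose by 1.83 ± 0.218 in cluster 10 (2.3e-06). *Cdkn1a*, a cell-cycle inhibitor gene, rose by 3.17 ± 0.166 in cluster 8 and 2.79 ± 0.131 in cluster 10 (edgeR adjusted p = 7.1e-10 and 5.2e-13), and *Nfkb2* by 2.71 ± 0.11 and 1.54 ± 0.181 (4.5e-11 and 1.9e-06). Over all activated cells *Relb*, *Cdkn1a*, *Nfkb2* and *Nfkb1* rose by 2.71, 2.14, 1.42 and 1.33 (edgeR adjusted p = 3.6e-06, 4.8e-08, 1.1e-06 and 1.3e-06). Of 6 receptors for survival cytokines, 4 rose and 1 fell in activated cells (0.94). *Cd40*, whose ligation is known to prolong dendritic cell survival, stood at 6.72, 8.55 and 6.5 CPM in resting and 128, 132 and 106 CPM in activated cells (4.17 ± 0.115, edgeR adjusted p = 2.5e-09) and rose by 5.28 ± 0.183 in cluster 8 and 4.89 ± 0.18 in cluster 10. *Tnfrsf11a* (RANK) and *Csf2rb*, the shared chain of the GM-CSF receptor, rose by 1.19 ± 0.225 and 0.69 ± 0.0943 in activated cells (edgeR adjusted p = 0.0022 and 0.00022), and *Tnfrsf11a* by 2.66 ± 0.177 in cluster 8 (1.1e-08). *Csf2rb* in cluster 10 (0.64 ± 0.144, edgeR adjusted p = 0.004) lost its call without the WT (0.39, adjusted p = 0.17) or the *sGsn-/-* library (0.69, adjusted p = 0.053) and with thinned cells (0.28, adjusted p = 0.54), in a range of 2.7e-05 to 0.54. *Flt3* there lost its call (−0.51 ± 0.165, edgeR adjusted p = 0.048) by DESeq2 (adjusted p = 0.063), with library size alone (0.1), without cluster 6 (0.25), with the block (adjusted p = 0.1) and without the WT (−0.57, adjusted p = 0.13), the *sGsn-/-* (−0.75, adjusted p = 0.051) or the *sGsn-/- Clec9a-/-* library (−0.26, adjusted p = 0.43), in a range of 0.0002 to 0.43. *Csf1r*, a macrophage receptor gene, rose by 1.35 ± 0.325 in activated cells (edgeR adjusted p = 0.01) and 2.68 ± 0.55 in cluster 8 (0.0011), where it stood at 36.8 CPM in the WT library and 5.51 and 3.88 CPM in the others. Without the WT library the values were 1.07 (adjusted p = 0.057, the highest over 10 alternatives from 9.6e-07) and 1.23 (adjusted p = 0.12, the highest over 10 from 1.6e-14).

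In cluster 9 the tallies were 1 of 12 higher for the other family genes, 2 higher and 1 lower of 16 for mitochondrial apoptosis, 2 and 1 of 13 for death receptors, and 1 and 1 of 6 for cytokine receptors. In cluster 7 they were 1 lower of 12, 6 higher of 16, 5 higher of 13, 1 higher of 14 regulators, and 1 higher and 1 lower of 6. In early cDC1s they were 3 higher and 4 lower of 12, 5 and 2 of 16, 2 and 2 of 12, 2 and 4 of 14, and 3 and 3 of 6. For cluster 8 against cluster 10 they were 2 higher of 5, 4 higher and 3 lower of 12, 4 and 3 of 8, 5 higher of 11 and 2 higher of 5. In cluster 8 against resting cells 4 of the 6 cytokine receptors were higher (median 2.27), and in cluster 10 2 were higher and 1 lower (0.15).

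Markers of other cell types moved with some of these results, and their part in them was not tested. In activated against resting cDC1s, 4 of 7 tested monocyte or macrophage markers were higher and 1 lower, 2 of 5 cDC2 markers higher, 3 of 6 pre-cDC markers higher and 1 lower, and 3 of 6 cell-cycle markers higher. Likewise 1 of 3 NK cell markers and the single tested fibroblast or tumour cell marker were higher, and 3 of 8 cDC1 markers were lower. The monocyte or macrophage markers summed to 404, 225 and 309 CPM in activated cells, those of cDC2s to 57.0, 62.4 and 41.9 CPM and those of the cell cycle to 44.9, 56.7 and 41.6 CPM. In cluster 9 the cell-cycle markers summed to 65.3, 59.5 and 54.8 CPM, against 21.4, 20.9 and 17.2 CPM in resting cells, with 1 of 5 called higher. There 1 of 5 cDC2, 1 of 6 pre-cDC and 1 of 3 plasmacytoid markers and the single tested fibroblast or tumour cell marker were higher as well. In cluster 7, 2 of 6 cell-cycle markers, 1 of 4 cDC2 and 1 of 3 NK cell markers were higher. Monocyte or macrophage markers there were 2 higher and 1 lower of 7, pre-cDC markers 2 higher and 1 lower of 6, and plasmacytoid markers 1 lower of 3. In cluster 8, 6 of the 7 testable monocyte or macrophage markers (of 8) rose and 1 fell, and the list summed to 665, 127 and 130 CPM for WT, *sGsn-/-* and *sGsn-/- Clec9a-/-*, against 367, 345 and 345 CPM in resting cells. *Apoe* was the most abundant, at a mean of 103 CPM, and none of the 8 was at 0. The 7 markers of NK cells summed to 98.8, 187 and 66.0 CPM for cluster 8 (*Klrd1* most abundant, 2 of 3 tested higher, none at 0) and 74.4, 126 and 171 CPM for cluster 10 (1 of 3 tested higher, *Eomes* and *Prf1* at 0), against 48.3, 81.9 and 51.7 CPM in resting cells. The 6 markers of cDC2s summed to 88.2, 17.3 and 40.8 CPM in cluster 8, 138, 506 and 100.4 CPM for cluster 10 (*Cd209a* most abundant at 210.5 CPM, 2 of 5 tested higher) and 23.9, 21.5 and 22.0 CPM in resting cells, with *Clec4a4* at 0 throughout. In early cDC1s all 5 tested cDC2 markers and 6 of 7 pre-cDC markers rose, the former summing to 156, 127 and 151 CPM and the latter to 287, 276 and 235 CPM. The monocyte or macrophage markers summed to 390.0, 356 and 389 CPM there, and 4 of 7 rose. Also higher in early cells were 1 of 2 tested T cell markers, 1 of 3 plasmacytoid markers and the single tested B cell marker. Of the cDC1 markers 6 of 8 were lower there, as was 1 of 7 pre-cDC markers. In cluster 10 the markers of activated cDCs summed to 524, 51.6 and 73.6 CPM, with *Fscn1* and *Cacnb3* at 0 and 3 of 5 tested higher. The WT library, apart from the others in this sum, was also the highest for *Bcl2a1a* in cluster 10. The pre-cDC markers summed to 383, 458 and 204 CPM for cluster 10 (3 of 6 tested higher and 1 lower), against 228, 212 and 222.5 CPM in resting cells. In cluster 10 the cDC1 markers were 1 higher and 4 lower of 8, and the monocyte or macrophage markers 2 higher and 1 lower of 7. Cell-cycle markers (6) summed to 74.6, 94.5 and 15.5 CPM in cluster 8, against 21.4, 20.9 and 17.2 CPM in resting cells, and 4 of 6 rose. Other lists were low in cluster 8: 4.84, 16.5 and 1.94 CPM for T cell markers (7, *Lat* at 0), 14.5, 18.9 and 25.2 CPM for plasmacytoid markers (7), 0.969, 0.787 and 0 CPM for neutrophil markers (5, *S100a8*, *S100a9* and *Retnlg* at 0) and 8.72, 4.72 and 15.5 CPM for fibroblast or tumour cell markers (6, *Lum* at 0). Of the cDC1s, 1.46% were among the barcodes with the highest doublet scores, 9.96% in cluster 4 and 0.546% in activated clusters.

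Between genotypes there is 1 library each, so no test was made; intervals are exact at 95% and cover counting error only. Over all cDC1s, 0 of 10 members differed by more than 1.5-fold in any pair of genotypes, against 0.943% of the 8060 genes at 5 CPM or more for *sGsn-/-* against WT, 1.43% for *sGsn-/- Clec9a-/-* against WT and 1.71% for *sGsn-/- Clec9a-/-* against *sGsn-/-*. The members' median log2 ratios in these pairs were 0.18, 0.04 and −0.18, against −0.01, −0.07 and −0.07 over all these genes. *Bcl2a1b* stood at 169.5, 231 and 170.5 CPM in WT, *sGsn-/-* and *sGsn-/- Clec9a-/-* cDC1s. The *sGsn-/-* library was the high one, with log2 ratios of 0.45 (0.39 to 0.50) to WT and −0.44 (−0.50 to −0.38) for *sGsn-/- Clec9a-/-* to *sGsn-/-*. Cluster 8 supplied 84 of 2316 WT cells, 114 of 1712 *sGsn-/-* cells and 57 of 1778 *sGsn-/- Clec9a-/-* cells. Within resting cells the log2 ratios to WT were 0.44 (0.34 to 0.54) for *sGsn-/-* and 0.40 (0.30 to 0.505) for *sGsn-/- Clec9a-/-*, and *sGsn-/- Clec9a-/-* to *sGsn-/-* was −0.04 (−0.15 to 0.07). Within cluster 8 *sGsn-/-* to WT was −0.03 (−0.12 to 0.06), and with clusters weighted equally the 3 levels were 335.8, 345.3 and 308.4 CPM. *Mcl1* stood at 842, 802 and 689 CPM and *Bcl2l11* at 84.6, 79.5 and 66.7 CPM, both lowest in the *sGsn-/- Clec9a-/-* library, with log2 ratios to WT of −0.29 (−0.32 to −0.26) and −0.34 (−0.44 to −0.25). Within resting cells alone these ratios were −0.27 (−0.31 to −0.24) and −0.36 (−0.48 to −0.24). *Bcl2* in resting cells was lower in WT, at 5.02 CPM, than in *sGsn-/-* at 7.66 CPM (0.61, 0.20 to 1.01) and in *sGsn-/- Clec9a-/-* at 8.0 CPM (0.67, 0.27 to 1.07).

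Within activated cDC1s, members past 1.5-fold numbered 0, 0 and 3 of 10 for *sGsn-/-* against WT, *sGsn-/- Clec9a-/-* against WT and *sGsn-/- Clec9a-/-* against *sGsn-/-*, against 6.31%, 9.65% and 11.9% of the 7993 genes at 5 CPM or more, and the members' medians were 0.13, −0.17 and −0.23, against −0.03, −0.08 and −0.04. The 3 were *Bcl2a1a* (−0.62, −0.79 to −0.46), *Bcl2a1b* (−0.66, −0.75 to −0.57) and *Bid* (0.81, 0.28 to 1.35), all for *sGsn-/- Clec9a-/-* against *sGsn-/-*. Cluster 8 supplied 84 of 326 activated WT cells, 114 of 315 *sGsn-/-* cells and 57 of 274 *sGsn-/- Clec9a-/-* cells, so the mix of clusters differed between these sums. Within cluster 8 alone, where 33.9% of 7766 genes were past 1.5-fold for *sGsn-/- Clec9a-/-* against WT and 35.2% for *sGsn-/- Clec9a-/-* against *sGsn-/-*, *Bcl2a1b* was still lower in the *sGsn-/- Clec9a-/-* library, by a log2 ratio of −0.37 (−0.49 to −0.25) to WT and −0.34 (−0.46 to −0.22) to *sGsn-/-*. *Bcl2l1* within cluster 8 was higher in the *sGsn-/- Clec9a-/-* library, by 1.0 (0.41 to 1.59) and 1.07 (0.50 to 1.63), and *Bcl2l11* was lower, by −0.80 (−1.23 to −0.38) and −0.56 (−0.99 to −0.15). *Bak1* stood at 29.1 CPM in that library, against 55.2 in WT and 52.7 in *sGsn-/-*, and *Bid* at 11.6 against 10.7 and 4.72 CPM. Of the 9 members counted within cluster 8, 3 were past 1.5-fold in each of these pairs, near the share of all genes. Each of these sums comes from 57 to 114 cells of 1 pool of mice, and genotype, library and the sex ratio of the pool cannot be told apart.

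Over the 33 sums of 11 clusters and 3 libraries, the genes with the most similar pattern were ranked by Pearson's r of log2(CPM + 1), centred within library, among 4696 genes at 20 CPM or more. These sums share libraries and neighbouring cells, and r is a description. For the sum of the *Bcl2a1* copies they were *Nfkbib* (r = 0.897), *Relb* (0.891), *Traf1* (0.887), *Rap2a* (0.882) and *H2-Q4* (0.878). *Bcl2l1* was most like *Ptger4* (0.859), *Litaf* (0.85), *Csf2rb* (0.835), *Aebp2* (0.828) and *Gfpt1* (0.827), and *Bcl2l11* most like *Gpr132* (0.826), *Lilr4b* (0.812), *Ric1* (0.801), *Gpbp1* (0.79) and *Bhlhe40* (0.783). *Mcl1* followed another set, *Ddx5* (0.897), *Ppp1r15a* (0.883), *Ezr* (0.824), *Ppp1r10* (0.817) and *Chka* (0.793), and *Bax* another again, which included *Sh3bgrl3* (0.896), *Rps20* (0.888), *Taf10* (0.883) and *Slc25a4* (0.881). *Bak1* had its highest r with *Tspan31* (0.761), and *Bcl2* and *Bid* lay below 20 CPM and were not ranked. Among the members, *Bcl2l1* and *Bcl2l11* had r = 0.692, the *Bcl2a1* sum had r = 0.571 with *Bcl2l1*, 0.523 with *Bcl2l11* and 0.165 with *Mcl1*, and *Bax* and *Mcl1* had r = −0.421.

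All 28855 barcodes that passed filtering were clustered here, deposited cDC1s among them, and clusters were named from marker genes. The members' levels are given for the barcodes outside the deposited cDC1s, as mean ± SD over the 3 libraries. The cDC1-like class included a cluster led by *Cxcl9*, *Ifit3* and *Ifit2* (910 barcodes, 477 of them deposited cDC1s). It held 6 of the 8 cDC1 markers and 3 of the 8 monocyte or macrophage markers. A cluster led by *Plet1*, *Cldn1* and *Fdps* (2243 barcodes, 1434 deposited) also held 6 of 8 cDC1 markers. Neither had a cDC1 marker among its leading genes, and their part in the cDC1-like levels was not tested. Of the cDC2-like barcodes, 1805 fell in a cluster led by *Retnla*, *Lpl* and *Ear2*, with 5 of the 6 cDC2 markers and 4 of the 8 monocyte or macrophage markers, so values without it are also given, an alternative chosen after seeing the data. *Bcl2* was highest in NK cell-like cells (296 ± 34.7 CPM, 3329 barcodes) and T cell-like cells (150.2 ± 24.1 CPM, 366 barcodes), separated from each other and from pre-cDC-like cells (34.4 ± 4.48 CPM, 2791 barcodes), and stood at 14.8 ± 2.32 CPM in cDC1-like cells (1736 barcodes) and 20.8 ± 1.40 CPM in cDC2-like cells (5687 barcodes; 25.7 ± 1.96 CPM without that cluster). The sum of the *Bcl2a1* copies was highest in activated cDC-like cells that the deposited table does not list (1958 ± 76.8 CPM; 88 WT, 92 *sGsn-/-* and 23 *sGsn-/- Clec9a-/-* barcodes), then in monocyte or macrophage-like cells (904 ± 41.8 CPM, 3215 barcodes), cDC2-like cells (707 ± 29.0 CPM, or 742 ± 21.5 CPM without that cluster) and cDC1-like cells (447 ± 39.9 CPM), each separated from the next. It was low in plasmacytoid-like (164 ± 70.7 CPM), pre-cDC-like (158 ± 16.3 CPM) and NK cell-like cells (147 ± 21.5 CPM), which overlapped and are not ranked. *Mcl1* ran from 1002 ± 121 CPM in pre-cDC-like cells, overlapping monocyte or macrophage-like cells (871 ± 87.4 CPM) and cDC2-like cells (847 ± 67.3 CPM), down to NK cell-like cells (333 ± 34.1 CPM). Without that cluster, cDC2-like cells held 775 ± 70.0 CPM of *Mcl1*, below the range of pre-cDC-like cells. *Bcl2l11* was highest in NK cell-like cells (370.1 ± 43.1 CPM), apart from pre-cDC-like (176 ± 17.3 CPM) and plasmacytoid-like cells (172 ± 40.8 CPM), which overlapped, and lowest in cDC1-like cells (70.9 ± 0.256 CPM). *Bcl2l1* ran from 21.4 ± 1.29 CPM in monocyte or macrophage-like cells to 5.87 ± 1.24 CPM in pre-cDC-like cells, *Bax* from 229 ± 21.1 CPM in cDC1-like to 142 ± 6.65 CPM in plasmacytoid-like cells, and *Bid* from 24.6 ± 0.601 CPM in NK cell-like to 6.04 ± 2.94 CPM in activated cDC-like cells. *Bak1* stood at 72 ± 8.88 CPM in cDC2-like cells, the highest mean, but at 45.6 ± 0.537 CPM without the cluster led by *Retnla*, which itself held 100.3 ± 8.39 CPM, and it was lowest in NK cell-like cells (31.4 ± 3.46 CPM). A further 4034 barcodes, with a median of 3524.5 UMIs, stayed unnamed. The sort excluded NK1.1+ and Cd3e+ cells, and how NK cell-like and T cell-like barcodes came to be in the libraries was not tested.

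**Figure D3:**
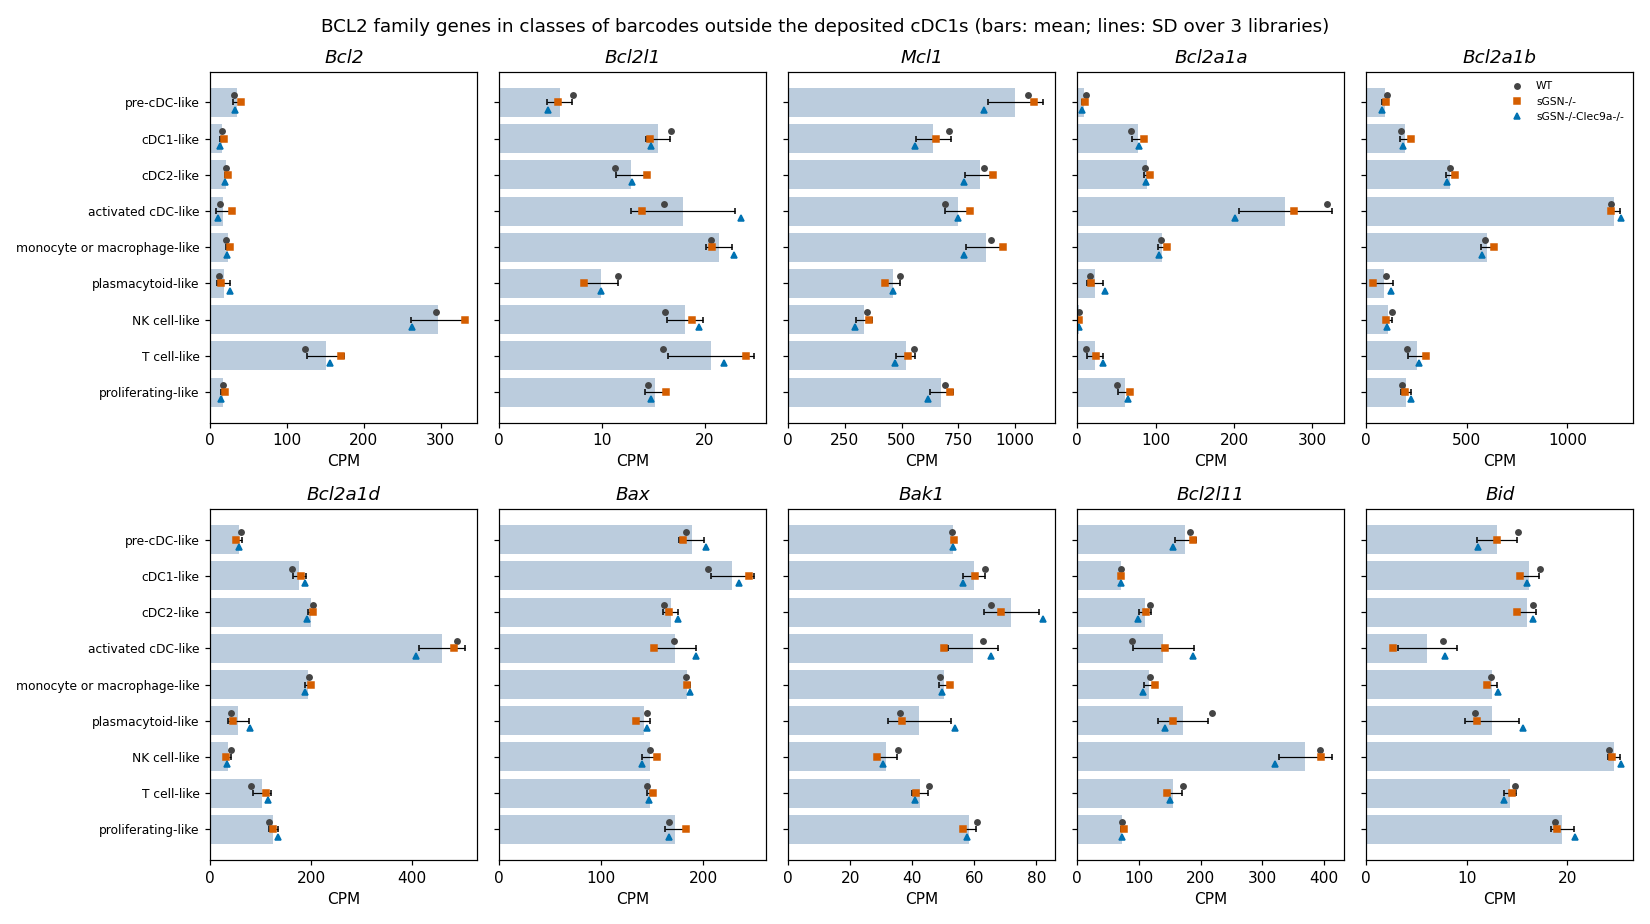
CPM of the members in 9 classes of cells outside the deposited cDC1s; bars are means and lines the SD over 3 libraries, and points are single libraries. The cDC2-like class includes the cluster led by Retnla (1805 of 5687 barcodes). Bcl2 and Bcl2l11 are highest in NK cell-like cells (296 and 370.1 CPM). The sum of the Bcl2a1 copies, which is not drawn, is highest in activated cDC-like cells (1958 CPM).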

How the data were processed

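UMI counts per gene and barcode were deposited by the authors for 3 libraries (Cell Ranger 6.0.1 per the matrix headers, mm10), with a table of cDC1 barcodes and clusters; the submitters' processing notes also name Seurat 4.0.0. In 78.5% of cDC1s (4559) the table's UMI totals equalled those of the matrices, with differences of at most 34. Counts were summed per library and group of clusters with Python 3.11.15, numpy 2.4.6, scipy 1.17.1 and pandas 2.3.3, and tested with edgeR 4.0.16 in R 4.3.3 (TMM factors, default filter on low counts, quasi-likelihood test, Benjamini-Hochberg adjustment, threshold 0.05), with DESeq2 1.42.0 as an alternative. The tests were checked on simulated data. There, unchanged genes made up 8.74% of calls for cluster 7, 7.53% for early cells and 5.41% for cluster 8 against 10. These lie above the threshold of 0.05, and the other comparisons gave 3.93% to 4.86%. Of genes set to differ by 1 on the log2 scale, 31% were called for cluster 10 and 51% to 75% for the other comparisons. Each comparison had 1 simulated run, with 100 genes set to differ at each size and sums drawn without pairing by library. These shares therefore describe that setting and not the error rate of the calls in the data. Libraries differ in genotype, and p-values measure the spread between these 3 pools.

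Sums of 1 library come from the same pool of mice and are paired by it. The correlation of deviations between paired sums was 0.236, 0.204 and 0.238 (WT, *sGsn-/-*, *sGsn-/- Clec9a-/-*) for activated against resting cDC1s, 0.209, 0.149 and 0.236 for early, 0.154, 0.122 and 0.166 for cluster 7, 0.0959, 0.106 and 0.102 for cluster 8, 0.126, 0.0894 and 0.133 for cluster 9, 0.0406, 0.0149 and 0.0751 for cluster 10, and 0.0756, −0.0229 and 0.0839 for cluster 8 against 10. Alternatives were DESeq2, library size without TMM factors, no filter, the library as a block, each library left out, cells thinned to 3900 UMIs (288 cDC1s left out), the 6% of barcodes with the highest Scrublet scores left out (85 cDC1s), clusters reassigned by 20 neighbours in 30 components without the listed genes (93.9% of cells kept their state), resting cells without cluster 6, and equal weights for clusters.

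Of 30209 barcodes, 54 with fewer than 200 genes and 1300 above 16.7% mitochondrial UMIs (mean plus 2 SD) were left out, and Leiden clusters of the other 28855 were found by scanpy 1.11.5 with leidenalg 0.10.2 (2000 variable genes, 50 components, 20 neighbours, resolution 1). A cluster was named where at least 3 markers of a type were in 10% of its cells and 2-fold over the median cluster; the lead over the next type, the 1.5-fold limit between genotypes and the motifs were chosen after the data had been seen. Transcripts and promoters were aligned with biopython 1.88, and plots drawn with matplotlib 3.10.9. By rule the 10 members were named throughout, with up to 4 called genes per list of largest fold change for activated cells and up to 3 for clusters 8 and 10; the lists were other family genes, mitochondrial apoptosis, death receptors, regulators and cytokine receptors. Other members of these lists and the markers were counted; results for a few genes that these rules name are not reported here. Members and lists were chosen with earlier results of these data known.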

Additional observations from a re-analysis of the deposited data

How the results depend on the processing

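Over 11 alternatives *Bcl2a1b* stayed called higher in activated cDC1s (log2 fold change 2.65 to 3.05) and in clusters 7 (0.53 to 0.85), 8 (4.16 to 4.52), 9 (2.70 to 2.99) and 10 (2.38 to 2.68), as did *Bcl2l1* and *Bcl2l11* in activated cells (0.50 to 0.80 and 0.44 to 0.67) and cluster 8 (1.73 to 2.37 and 1.28 to 1.58), *Mcl1* in cluster 9 (0.63 to 0.72) and *Bcl2* in early cells (0.90 to 1.53). Of the member values under all alternatives, 677 kept direction and call, 37 lost a call, 7 gained one, 23 changed sign in a test, and 4 moved with equal weights, 1 of them in sign; of those of other named genes and summed copies, 488 kept, 46 lost, 2 gained and 1 changed sign. The block changed no call of a member, named gene or summed copies other than those given with the results. The cause of these changes was not tested. Of the compared clusters, cluster 10 had the fewest UMIs (891318).

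Thinned to 3900 UMIs, genes called higher and lower were 1100 and 480 for activated cells (1674 and 932 unthinned), 725 and 266 for cluster 7 (1293 and 674), 1431 higher for cluster 8 (2376), 175 and 40 for cluster 9 (413 and 136), 279 and 374 for cluster 10 (635 and 612), 1327 and 1361 for early cells (2039 and 2075), and 417 and 329 for cluster 8 against 10 (796 and 683). Members higher became 1 in clusters 7 and 10, where *Bcl2a1d* was not called (0.59, edgeR adjusted p = 0.064), and members lower 0 in cluster 8. Log2 fold changes that turned sign with thinning were *Bcl2l1* 0.0004079, *Mcl1* −0.008449, *Bcl2l11* 0.17 and *Bid* −0.46 in cluster 7, *Bax* −0.002263 in cluster 8 and *Bid* 0.38 in cluster 10.

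With library size alone, genes lower became 1479 for activated cells and 1246 for cluster 7, members higher 1 in cluster 7 and members lower 0 in cluster 10. Signs turned for *Bax* in activated cells (−0.024) and cluster 8 (−0.016) and for *Mcl1* (−0.054) and *Bid* (−0.0697) in cluster 7. This scaling moved the median of all genes by −0.11 in cluster 7, −0.19 in cluster 8 and −0.17 in cluster 8 against 10, and the share of calls that were higher from 64.2% to 49.1% (activated), 65.7% to 43.2% (cluster 7), 53.1% to 38.7% (cluster 8) and 53.8% to 39.1% (8 against 10). Without a filter, genes lower became 1444 (activated) and 279 (cluster 9) and genes higher 1317 (8 against 10); members higher became 1 in cluster 7 and members lower 1 in 8 against 10. *Bid* in cluster 7 turned to −0.007457, and early *Mcl1* (−0.21, edgeR adjusted p = 0.006) and *Bcl2a1b* (0.21, edgeR adjusted p = 0.024) were called. The median moved by −0.13 in cluster 8 and 0.12 in 8 against 10, and the share higher from 65.7% to 55.4% (cluster 7), 75.2% to 61.3% (cluster 9) and 53.8% to 67.2% (8 against 10). DESeq2 gave 1 member higher in cluster 7, 1004 genes higher in cluster 10 (share higher 50.9% to 67.7%) and 418 lower in 8 against 10.

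With the library as a replicate block, 205 genes were lower in cluster 9 and 2 members higher in cluster 10. Neighbour-based states gave 1 member higher in cluster 7, with *Bcl2l11* at 0.14 there and *Bcl2a1a* at −0.048 in cluster 10. Without cluster 6, 234 genes were lower in cluster 9 and 0 members in cluster 10, and *Bax* in activated cells (−0.032) and *Bcl2l11* in cluster 7 (0.036) turned sign. The summed copies in early cells (−0.21) had the opposite sign to *Bcl2a1b*.

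Leaving out 1 library at a time gave 324 to 816 genes lower for activated cells, 306 to 357 for cluster 7, 1258 to 2187 for cluster 8, 55 to 81 for cluster 9, 270 to 337 for cluster 10, 1309 to 1669 for early cells and 381 to 753 for 8 against 10. Genes higher were 250 to 286 for cluster 9, 340 to 436 for cluster 10 and 1270 to 1715 for early cells. Members higher were 1 to 2 in cluster 7 and 2 to 3 in cluster 10; members lower were 0 to 1 in cluster 8, 0 to 0 in cluster 10, 1 to 2 in early cells and 0 to 1 in 8 against 10. Log2 fold changes spanned 0 for *Bid* (−0.36 to 0.073) in activated cells, *Bcl2l11* (−0.088 to 0.097) and *Bid* (−0.066 to 0.14) in cluster 7, *Bak1* (−0.21 to 0.025) in cluster 8, *Bcl2* (−0.26 to 0.039) and *Bid* (−0.35 to 0.48) in cluster 9, and *Bcl2l1* (−0.056 to 0.18) and *Bid* (−0.18 to 0.049) in early cells.

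With equal weight for each cluster, log2 ratios for activated cells moved to 0.13 (*Mcl1*), 1.48 (*Bcl2a1d*), 0.01 (*Bax*) and −0.08 (*Bak1*, which changed sign), and 25 of 30 levels by genotype moved beyond counting error: *Bcl2a1b* stood at 335.8, 345.3 and 308.4 CPM in WT, *sGsn-/-* and *sGsn-/- Clec9a-/-* cDC1s. At resolution 0.5, NK cell-like cells held 258.4 CPM of *Bcl2* and 23.74 CPM of *Bid*; with classes named without a lead, an alternative chosen after seeing the data, they held 248.9 CPM of *Bcl2*, 320.7 CPM of *Bcl2l11* and 23.72 CPM of *Bid*. Without the cluster led by *Retnla*, also chosen after seeing the data, cDC2-like cells held 45.61 CPM of *Bak1*, against 71.98 CPM with it.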
